A study of Mus musculus with 15 samples.

Results

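Cysteine and taurine metabolism was followed through 7 genes in mouse liver: Cbs and Cth for transsulfuration, Cdo1, Csad and Ado for the making of taurine, Slc6a6 for its uptake and Baat for its use. The set was chosen by a measured value of these libraries, the low level of Csad on the fat-rich diets, around which it was built, so every difference in Csad is given as a description. The other 6 genes were added for their place in the pathway. All 7 were among the 13967 genes tested, out of 25731 genes in the annotated tables.

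Bulk RNA sequencing was performed on liver RNA from 15 C57BL/6 mice, an inbred laboratory strain. Groups of 5 had eaten a ketogenic diet, that is, one with hardly any carbohydrate, or a high-fat diet for 3 days at 12 weeks of age, or chow. The labels are silent on the age of the chow mice, on sex, on what the diets contained and on how much was eaten. Estimated read counts per library ran from 34707597 to 50914494 on the ketogenic diet, from 30121672 to 44764257 on the high-fat diet and from 30190806 to 43688344 on chow.

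Cysteine is made from the methionine breakdown product homocysteine in 2 steps, catalysed by Cbs and Cth. Cdo1 oxidises cysteine to cysteine sulfinate, Csad removes its carboxyl group to give hypotaurine, and hypotaurine is oxidised to taurine. Ado reaches hypotaurine by another route, from cysteamine released during coenzyme A turnover. The liver imports taurine through Slc6a6 and joins it to bile acids through Baat, and in mice most bile acids leave the liver as taurine conjugates.

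The steps of the pathway did not move together. On the ketogenic diet Cbs and Slc6a6 fell and Cdo1 and Ado rose against chow (4 of the 6 genes tested, beside 30.8% of all genes), while Cth and Baat did not pass the test. The rise of Ado was small and was lost in some alternatives (adjusted p up to 0.0714, edgeR). On the high-fat diet Slc6a6 was the 1 gene of the 6 that passed, with a fall, beside 15.6% of all genes, so that count is near the share of all genes. Csad, the step between cysteine sulfinate and hypotaurine, was 7.12 times lower on the ketogenic diet and 5.97 times lower on the high-fat diet than on chow.

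**Figure D1:**
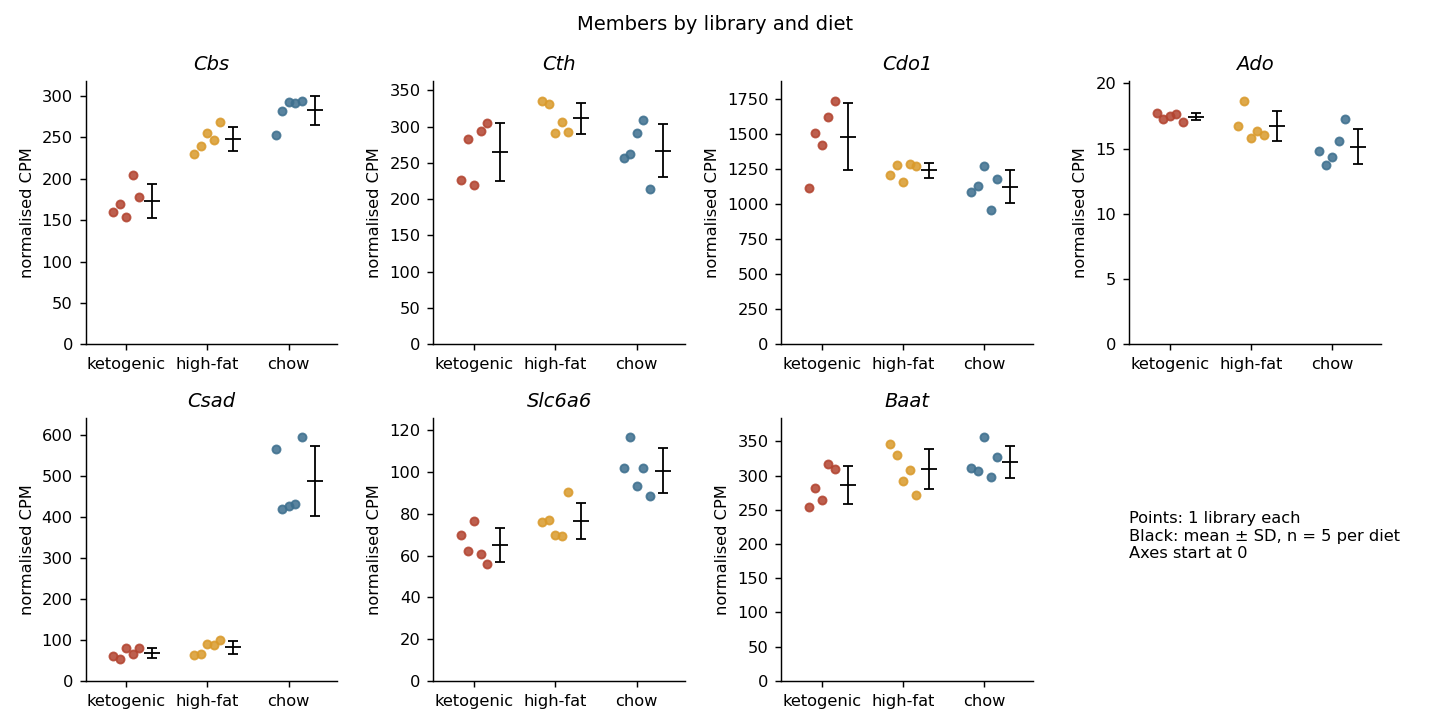
Normalised CPM (counts scaled to a common library size after TMM normalisation) of the 7 genes, with 1 point per library and the mean ± SD of 5 libraries beside each diet; every vertical axis starts at 0. Csad lay between 52.62 and 81.26 on the ketogenic diet and between 62.91 and 100.5 on the high-fat diet, against 419.7 to 594.4 on chow, and Cbs on the ketogenic diet lay below every library of both other diets.

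Cbs, cystathionine beta-synthase, joins homocysteine to serine and so commits it to cysteine (ENSMUSG00000024039.15, GRCm38 chr17:31608894-31637238, minus strand). Its normalised CPM was 160.0, 169.6, 153.8, 205.2 and 177.7 in the ketogenic libraries, 230.3, 240.3, 255.9, 247.1 and 268.7 in the high-fat libraries, and 253.2, 281.7, 292.8, 292.2 and 294.7 in the chow libraries. Every ketogenic library was below every library of the other diets, and the high-fat and chow libraries overlapped. Against chow the ketogenic change was -0.71 ± 0.075 on the log2 scale (SE, adjusted p = 1.39e-06, edgeR quasi-likelihood test over all genes), or 1.63 times lower. Set against the high-fat diet, Cbs was lower by a log2 change of -0.52 ± 0.075 on the ketogenic diet (adjusted p = 6.97e-05, edgeR). The high-fat change against chow, -0.19 ± 0.075, did not pass (adjusted p = 0.0973, edgeR). All of these calls held in the 18 alternatives run for each comparison. In deposited TPM, which is corrected for length and has no TMM scaling, Cbs overlapped between all diets. It lay at 126.3 to 155.1 on the ketogenic diet and 118.6 to 201.2 on the high-fat diet, against 140.5 to 198.2 on chow. The alternatives in which the calls held include total-count scaling, which also has no TMM scaling. Why TPM differed was not tested.

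Cth, cystathionine gamma-lyase, releases cysteine from cystathionine (ENSMUSG00000028179.12, chr3:157894248-157925077, minus strand). It averaged 265.4 ± 39.8 CPM on the ketogenic diet, 311.5 ± 21.3 CPM on the high-fat diet and 266.7 ± 36.5 CPM on chow (SD, n = 5). The ketogenic libraries spanned 219.4 to 305.1 CPM, the high-fat libraries 291.1 to 336.1 CPM and the chow libraries 214.2 to 309.5 CPM, so all 3 diets overlapped. The log2 changes were -0.01 for ketogenic against chow, 0.22 for high-fat against chow and -0.23 for ketogenic against high-fat, and none passed (adjusted p = 0.964, 0.148 and 0.106, edgeR). The 95% interval of the ketogenic change against chow ran from -0.23 to 0.22, and that of the high-fat change reached 0.45.

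The mixture of transcripts within a gene was compared as well, and no share passed a test once Csad was left out. The share of a gene's TPM (a level corrected for transcript length) held by each transcript was compared for the 13 transcripts with a mean share of at least 5% in genes with more than 1 such transcript. Of 39 exact two-sided permutation tests, 7 sat at the smallest p that 5 libraries against 5 allow (p = 0.00794, adjusted p = 0.0442), but 3 of these 7 were on Csad, around which the set was chosen. Over the 30 tests on the other genes the smallest adjusted p was 0.0595 (exact permutation test), so 0 passed, while 14 had an unadjusted p under 0.05. The adjustment over the 30 tests was added after the values were seen. The 4 at the smallest p were in Cbs and Cth, and their values are given as a description. How reads of shared exons are divided between transcripts is an estimate by kallisto, so these shares are less direct than gene counts.

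Cbs-201, the 2533-base coding transcript, held 21.3, 22.1, 20.2, 17.9 and 20.2% of Cbs in the ketogenic libraries, 24.0, 24.6, 25.1, 25.3 and 21.7% in the high-fat libraries and 26.9, 24.3, 27.0, 29.2 and 31.4% in the chow libraries. The ketogenic mean was 7.4 points below the chow mean, and those libraries did not overlap. Cbs-207, a transcript that keeps an intron, held 5.29 ± 0.615% on the ketogenic diet and 7.8 ± 1.17% on the high-fat diet (SD, n = 5). Cth-201, the 1815-base coding transcript, held 82.3 ± 2.74% of Cth on the ketogenic diet and 75.3 ± 1.63% on the high-fat diet (SD, n = 5). Its counterpart Cth-203, a 675-base transcript with no annotated coding sequence, held 16.1 ± 2.79% on the ketogenic diet and 23.3 ± 1.46% on the high-fat diet. These shares of Cth-201 and Cth-203 nearly add up to the whole gene, so they are 1 observation.

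**Figure D2:**
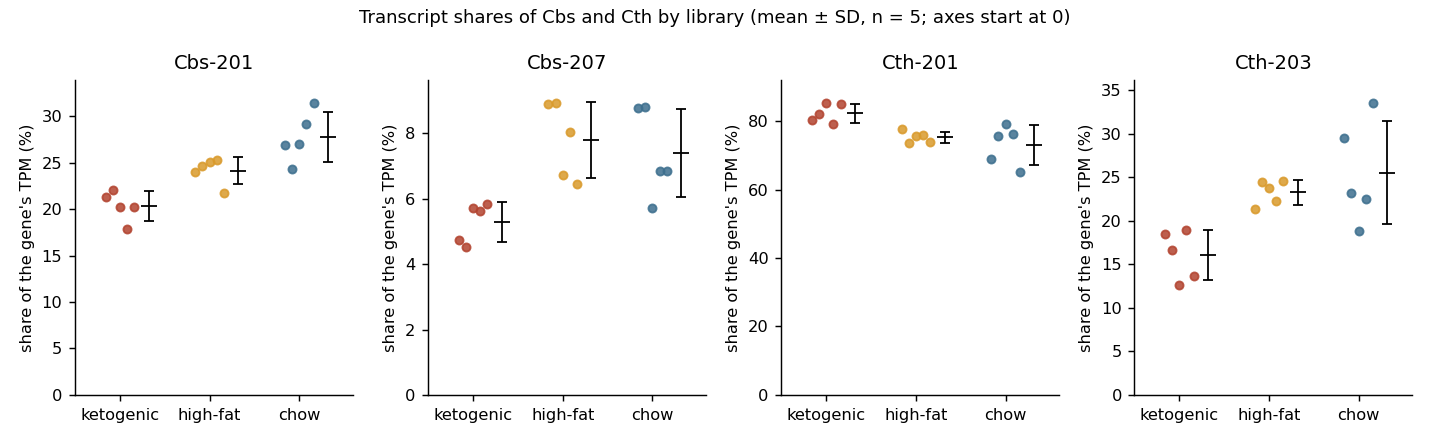
Share of the gene's TPM, in percent, held by 2 transcripts of Cbs and 2 of Cth, with 1 point per library and the mean ± SD of 5 libraries per diet on axes that start at 0. Cbs-201 ran from 17.9 to 22.1% on the ketogenic diet, below the 24.3 to 31.4% on chow, and Cth-201 ran from 79.1 to 85.3% on the ketogenic diet, above the 73.6 to 77.6% on the high-fat diet.

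Cdo1, cysteine dioxygenase, opens the oxidative route from cysteine to taurine (ENSMUSG00000033022.8, chr18:46713193-46728395, minus strand). Per length it was the most abundant of the 7 genes in every library, with 1666 ± 228 TPM on the ketogenic diet, 1129 ± 212 TPM on the high-fat diet and 1009 ± 125 TPM on chow (SD, n = 5). In normalised CPM the ketogenic libraries held 1117, 1512, 1425, 1623 and 1741, the high-fat libraries 1211, 1280, 1160, 1290 and 1271, and the chow libraries 1089, 1132, 1276, 956.9 and 1178. In 4 of 5 ketogenic libraries Cdo1 was above all chow libraries, and the library labelled 2 lay among them. The ketogenic rise against chow was 0.40 ± 0.10 on the log2 scale (adjusted p = 0.00528, edgeR). Neither the high-fat change against chow, 0.14 ± 0.10, nor the ketogenic change against the high-fat diet, 0.26 ± 0.10, passed (adjusted p = 0.366 and 0.0672, edgeR). Without the ketogenic library labelled 2, the change against the high-fat diet was 0.34 ± 0.085 (adjusted p = 0.00824, edgeR).

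Csad, cysteine sulfinate decarboxylase, follows Cdo1 (ENSMUSG00000023044.2, chr15:102176999-102204724, minus strand). Its normalised CPM was 61.98, 52.62, 80.12, 66.33 and 81.26 in the ketogenic libraries, 62.91, 66.77, 89.37, 88.58 and 100.5 in the high-fat libraries, and 566.4, 419.7, 425.8, 431.9 and 594.4 in the chow libraries. The gap to chow was wide on both diets, with the highest fat-fed library far below the lowest chow library. The log2 change was -2.83 ± 0.16 for ketogenic against chow and -2.58 ± 0.16 for high-fat against chow, and these comparisons share their chow libraries. Between ketogenic and high-fat the libraries overlapped, with a log2 change of -0.25 ± 0.16. The SE of these changes describes spread and is not used as a test.

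Among all 13967 genes, ordered from the lowest log2 change, Csad stood at 19 for ketogenic against chow, at 8 for high-fat against chow and at 2867 for ketogenic against high-fat. Of the 2337 genes with a mean of at least 50 CPM it stood at 4, 1 and 236 in the same order. The set was built around the low level of Csad on the fat-rich diets, so its extreme places against chow follow from that choice. Per length, Csad was the second most abundant of the 7 genes in every chow library and the fifth in every ketogenic and high-fat library. Its TPM was 3.03 ± 0.626% of that of Cdo1 on the ketogenic diet and 4.55 ± 0.982% on the high-fat diet, against 27.1 ± 5.2% on chow (SD, n = 5).

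Csad has annotated starts in separate places, and RefSeq gives promoter windows for 2 starts, 16009 bases apart. The upstream RefSeq start lies 328 bases beyond the farthest of the GENCODE starts by which reads are divided here, so its window holds none of those upstream starts. Both windows are shown because the diets differed in how Csad reads were divided between starts. Each runs 5′ to 3′ on the minus strand of GRCm38.p6, from 250 bases before to 50 bases after the RefSeq start, with capitals marking any motif found. The upstream window is chr15:102205003-102205302 and the downstream window chr15:102188994-102189293.
Csad upstream window: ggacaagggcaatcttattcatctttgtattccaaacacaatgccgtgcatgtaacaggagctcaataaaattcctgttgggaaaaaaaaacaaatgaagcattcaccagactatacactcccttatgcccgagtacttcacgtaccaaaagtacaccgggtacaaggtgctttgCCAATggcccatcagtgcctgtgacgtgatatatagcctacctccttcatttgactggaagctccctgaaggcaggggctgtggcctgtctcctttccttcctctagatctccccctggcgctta
Csad downstream window: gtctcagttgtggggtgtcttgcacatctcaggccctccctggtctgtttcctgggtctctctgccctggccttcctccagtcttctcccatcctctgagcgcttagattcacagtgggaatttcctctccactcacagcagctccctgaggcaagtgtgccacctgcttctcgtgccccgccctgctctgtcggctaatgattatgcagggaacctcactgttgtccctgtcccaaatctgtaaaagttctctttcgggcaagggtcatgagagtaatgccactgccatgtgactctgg

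Motifs of 6 kinds were searched on both strands, of which the capitals show the 1 match. They were the sterol element TCACNCCAC, the CCAAT box, the E-box CACGTG, the PPAR direct repeat (AGGTCA, 1 base, AGGTCA), the ATF4-CEBP element TGATGNAAT and the antioxidant element TGACNNNGC. A CCAAT box lay 75 bases before the upstream start, and such a box was present in 37.4% of all 32851 mouse promoter windows. None of these letters occurred in the downstream window. The shares of all windows holding the other 5 were 1.24% for the sterol element, 7.15% for the E-box, 0.0396% for the PPAR repeat, 0.965% for the ATF4-CEBP element and 12.4% for the antioxidant element.

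Most Csad reads were assigned to the 2 GENCODE transcripts that start near the downstream window (Csad-201 and 1 other). Their summed level was 56.5, 47.8, 73.4, 60.7 and 74.7 CPM in the ketogenic libraries, 54.4, 59.2, 75.9, 79.6 and 92.3 CPM in the high-fat libraries, and 529, 392, 398, 404 and 559 CPM in the chow libraries. Here the means were 7.28 times lower on the ketogenic diet and 6.31 times lower on the high-fat diet than on chow. The 13 GENCODE transcripts with upstream starts held 2.51, 2.30, 2.61, 2.82 and 2.07 CPM in the ketogenic libraries, 2.84, 2.71, 3.91, 2.68 and 3.13 CPM in the high-fat libraries, and 4.09, 4.65, 4.38, 4.26 and 3.92 CPM in the chow libraries. At these starts the means were 1.73 times lower on the ketogenic diet and 1.4 times lower on the high-fat diet than on chow, and the highest fat-fed library fell just short of the lowest chow library. The 7 transcripts that start inside the gene held 3.37 ± 0.86 CPM on the ketogenic diet and 6.3 ± 1.89 CPM on the high-fat diet, against 27.2 ± 5.16 CPM on chow (SD, n = 5). The upstream starts held 2.55 to 4.37% of the gene's reads on the ketogenic diet and 3.03 to 4.51% on the high-fat diet, against 0.66 to 1.11% on chow.

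This division by start was made after the values were seen and has no test. It rests on 83.7 to 201 upstream reads per library, and most upstream transcripts are incomplete models. Some of their exons overlap Zfp740, a zinc finger gene on the opposite strand that itself fell by 0.32 on the log2 scale on the ketogenic diet (adjusted p = 0.000211, edgeR) and by 0.21 on the high-fat diet (adjusted p = 0.0149, edgeR, and 0.0962 to 0.178 in the 3 of 18 alternatives that lost the call), and the sources used here do not say whether counting used strand. With only the 6 upstream transcripts that share at most 12 bases with Zfp740 exons, the level was 1.83 ± 0.436 CPM on the ketogenic diet, 2.53 ± 0.41 CPM on the high-fat diet and 2.75 ± 0.799 CPM on chow (SD, n = 5), and the diets overlapped. Csad-201 held 71.1 ± 0.821% on the ketogenic diet and 64.1 ± 6.05% on the high-fat diet, against 76.2 ± 0.732% of the gene's TPM on chow (SD, n = 5).

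**Figure D3:**
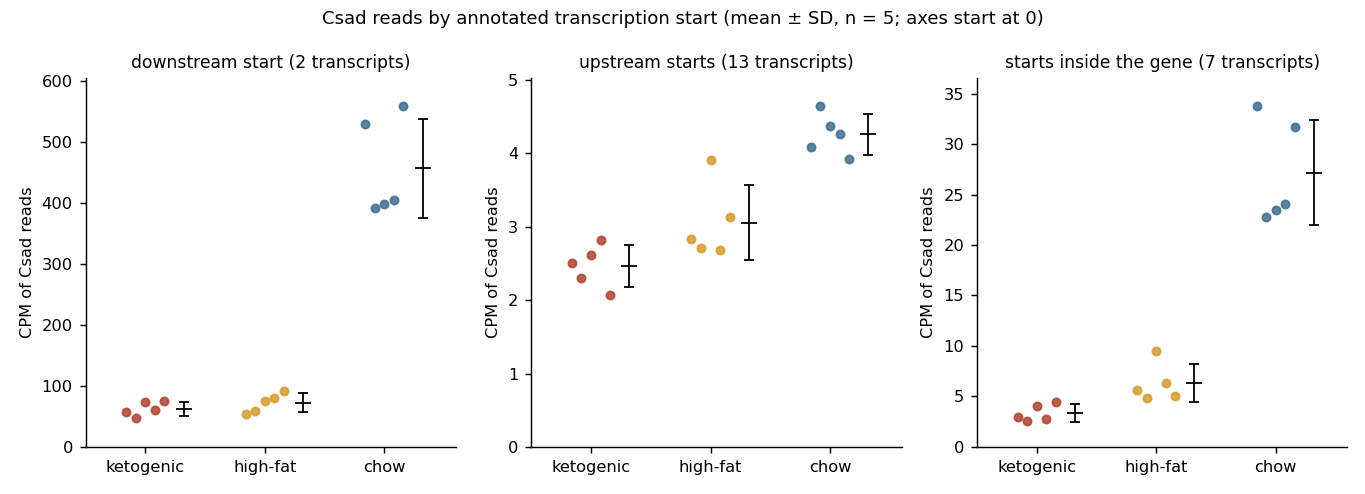
CPM of Csad reads by annotated start, with 1 point per library and the mean ± SD of 5 libraries per diet; each axis starts at 0 and has its own scale. At the downstream start the chow libraries lay between 392 and 559 CPM against 47.8 to 92.3 CPM on both fat-rich diets, while at the upstream starts the chow libraries lay between 3.92 and 4.65 CPM against 2.07 to 3.91 CPM.

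Ado, cysteamine dioxygenase, makes hypotaurine without Csad (ENSMUSG00000057134.5, chr10:67544511-67548955, minus strand). It was the least abundant of the 7 genes per length, at 4.831 ± 0.328 TPM on the ketogenic diet, 3.667 ± 0.532 TPM on the high-fat diet and 3.314 ± 0.237 TPM on chow (SD, n = 5). Its normalised CPM was 17.76, 17.3, 17.46, 17.62 and 17.03 in the ketogenic libraries, 16.71, 18.68, 15.8, 16.37 and 16.07 in the high-fat libraries, and 14.81, 13.75, 14.36, 15.55 and 17.29 in the chow libraries. The ketogenic values were tightly grouped, and the chow library labelled 19 lay among them. The ketogenic rise was 0.20 ± 0.066 on the log2 scale (adjusted p = 0.0238, edgeR), and it no longer passed without the chow library labelled 16 (adjusted p = 0.0714, edgeR) or 17 (adjusted p = 0.0566, edgeR). With protein-coding transcripts alone the adjusted p was 0.0608 in edgeR. The high-fat change of 0.14 ± 0.066 did not pass (adjusted p = 0.148, edgeR), though it did without the chow library labelled 19 (adjusted p = 0.0448, edgeR).

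Slc6a6, the sodium-dependent taurine transporter, brings taurine into cells (ENSMUSG00000030096.8, chr6:91684053-91759066, plus strand). Its normalised CPM was 69.72, 62.02, 76.71, 60.73 and 56.1 in the ketogenic libraries, 75.98, 77.22, 69.67, 69.13 and 90.48 in the high-fat libraries, and 102.1, 116.6, 93.41, 102.0 and 88.55 in the chow libraries. All ketogenic libraries were below all chow libraries, and 1 high-fat library reached into the chow range. The log2 change was -0.63 ± 0.093 for ketogenic against chow (adjusted p = 4.91e-05, edgeR) and -0.39 ± 0.093 for high-fat against chow (adjusted p = 0.00784, edgeR). Between ketogenic and high-fat it was -0.23 ± 0.093 and did not pass (adjusted p = 0.0707, edgeR), except without the ketogenic library labelled 4 (adjusted p = 0.0263, edgeR). In deposited TPM the ranges overlapped, at 12.94 to 19.17 on the ketogenic diet and 12.64 to 22.7 on the high-fat diet, against 14.83 to 23.54 on chow.

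Baat, which transfers bile acids from coenzyme A to taurine or glycine, passed in no comparison (ENSMUSG00000039653.9, chr4:49489422-49506557, minus strand). It averaged 285.6 ± 27.8 CPM on the ketogenic diet, 309.8 ± 29.5 CPM on the high-fat diet and 320.0 ± 22.8 CPM on chow (SD, n = 5). The libraries of all 3 diets overlapped, between 254.3 and 356.1 CPM. The 95% interval of its log2 change ran from -0.34 to 0.01 for ketogenic against chow and from -0.22 to 0.13 for high-fat against chow, and the adjusted p was 0.129 and 0.738 in edgeR. For ketogenic against high-fat the change was -0.12 ± 0.080 (adjusted p = 0.301, edgeR).

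**Figure D4:**
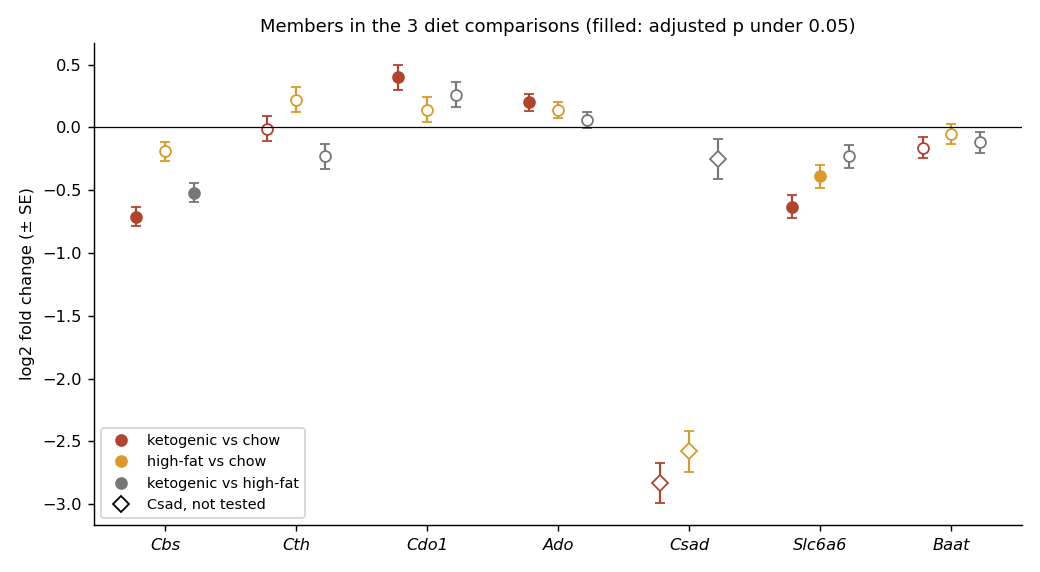
Log2 fold change ± SE of the 7 genes for ketogenic against chow, high-fat against chow and ketogenic against high-fat; filled circles passed an adjusted p of 0.05 in edgeR and diamonds mark Csad, which was not tested. Csad lay at -2.83 and -2.58 against chow, while the other genes stayed between -0.71 and 0.40.

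The counts of passing members are set beside those of all genes here. For ketogenic against chow 2 of the 6 rose and 2 fell, and 30.8% of all genes passed (16.2% higher and 14.6% lower). For high-fat against chow 1 of 6 fell, with 15.6% of all genes passing (8.3% higher and 7.32% lower), and for ketogenic against high-fat 1 of 6 fell, with 26.1% passing (13.1% higher and 13.0% lower). Libraries of the compared diets did not overlap for 2, 0 and 1 of the 6 genes in the same order, against 22.3, 10.3 and 17.0% of all genes. The median log2 change of the 6 was -0.09, 0.05 and -0.17, beside -0.01, 0.01 and -0.02 over all genes. Of the passing genes 52.6% were higher on the ketogenic diet than on chow, and 68.5% under total-count scaling, which moved no member call in that comparison.

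The ratio of Cbs to Cth, consecutive enzymes, also differed in level. The TPM of Cbs was 57.7 to 69.1% of that of Cth in the ketogenic libraries and 63.8 to 81.4% in the high-fat libraries, against 81.2 to 109% in the chow libraries. Across the 15 libraries the log2 CPM of Csad had a Pearson correlation of 0.82 with Slc6a6 and 0.71 with Cbs, and once diet means were removed these were -0.05 and 0.12. Cdo1 and Baat were related the other way round, at 0.02 over all libraries and 0.67 for the deviations from the diet means. These are descriptions over 15 libraries that share diets and scaling.

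Genes whose pattern over the 15 libraries was most like that of Csad were sought among 8625 genes with a mean of at least 5 CPM. The highest Pearson correlations were those of Gstm1 (0.956), Ugt2b35 (0.952), Me1 (0.951), Ephx1 (0.951), Aox1 (0.948) and Gsr (0.946). Gstm1 conjugates glutathione, Ugt2b35 conjugates glucuronic acid, Me1 makes NADPH from malate, Ephx1 hydrolyses epoxides, Aox1 oxidises aldehydes and Gsr regenerates reduced glutathione. The lowest were those of Elmod2 (-0.968), Gfpt1 (-0.962), the first enzyme of hexosamine synthesis, Pde4dip (-0.956) and Sec22c (-0.954).

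Me1 averaged 146.6 ± 13 CPM on the ketogenic diet and 196.4 ± 35.0 CPM on the high-fat diet, against 664.0 ± 184 CPM on chow (SD, n = 5). Gfpt1 ran the other way, at 32.2 ± 2.87 CPM on the ketogenic diet and 30.16 ± 2.09 CPM on the high-fat diet, against 19.56 ± 0.833 CPM on chow. Both were picked by their correlation with Csad, so their split by diet is a description. Once diet means were removed, the correlations of the 6 highest genes ran from 0.168 (Me1) to 0.627 (Aox1). Those of the 4 lowest ran from -0.819 (Elmod2) to -0.288 (Sec22c), with Gfpt1 at -0.353. Shared reads between near-identical Gstm genes make Gstm1 itself uncertain. The order was not firm: 1 of the 6 highest genes was also among the 6 highest by Spearman correlation and 4 under total-count scaling, and of the 4 lowest genes 1 stayed by Spearman correlation and 1 under total-count scaling. Within diets the 6 highest were Noc4l (0.884), Gnl3 (0.852), Atxn7l3 (0.834), Nsd3 (0.831), Med4 (0.829) and Hmgxb3 (0.826), none of them among the first 6.

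Cbs also has a RefSeq window, shown because Cbs was lower on the ketogenic diet than on both others. It is chr17:31637156-31637455 on the minus strand of GRCm38.p6, with capitals for an E-box 229 bases before the start and CCAAT boxes, 1 on each strand, 52 and 15 bases before it.
Cbs window: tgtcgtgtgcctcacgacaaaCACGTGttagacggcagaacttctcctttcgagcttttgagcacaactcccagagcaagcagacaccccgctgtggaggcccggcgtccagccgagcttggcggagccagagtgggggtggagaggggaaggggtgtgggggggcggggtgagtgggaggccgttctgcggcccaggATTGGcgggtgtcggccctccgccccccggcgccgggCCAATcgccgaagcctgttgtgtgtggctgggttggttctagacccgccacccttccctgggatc
Of the 7 genes, 3 had a window, the third being Ado, with a CCAAT box on the other strand 1 base before its start. Matches are letters in a window and say nothing of binding.

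Genes upstream and downstream of the pathway were taken from 9 lists of 108 genes, of which 100 could be tested. Their counts stand beside 16.2% of all genes higher and 14.6% lower on the ketogenic diet (30.8% in all), and 8.3% higher and 7.32% lower on the high-fat diet (15.6% in all), against chow. The methionine cycle supplies homocysteine. On the ketogenic diet 7 of its 15 genes rose against chow and none fell, with a median log2 change of 0.13 in the list and -0.01 over all genes. Mat1a, the liver enzyme that makes S-adenosylmethionine, reached 3522 ± 255 CPM on the ketogenic diet, against 1690 ± 316 CPM on chow (SD, n = 5; adjusted p = 2.11e-06, edgeR). Bhmt, which returns homocysteine to methionine, held 4417, 6357, 4325, 7486 and 6791 CPM in the ketogenic libraries, 5969, 6029, 6147, 5368 and 5514 CPM in the high-fat libraries and 2056, 2487, 2953, 3844 and 1742 CPM in the chow libraries. It rose by 1.17 ± 0.20 on the ketogenic diet (adjusted p = 0.000367, edgeR) and by 1.15 ± 0.20 on the high-fat diet (adjusted p = 0.0016, edgeR) on the log2 scale, with no overlap with chow. Bhmt and Cbs are rival uses of homocysteine, and on the ketogenic diet the 2 transcripts moved in opposite directions.

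On the high-fat diet 4 of the 15 methionine cycle genes rose against chow and none fell. Nnmt, which spends S-adenosylmethionine on nicotinamide, held 96.08 ± 11.5 CPM on the high-fat diet, against 27.38 ± 6.4 CPM on chow (SD, n = 5; adjusted p = 1.69e-05, edgeR). It was lower on the ketogenic diet than on the high-fat diet by a log2 change of -1.09 ± 0.16 (adjusted p = 0.000206, edgeR). Ahcy, which releases homocysteine, rose by 0.60 ± 0.098 on the high-fat diet (adjusted p = 0.000627, edgeR) and by 0.35 ± 0.098 on the ketogenic diet (adjusted p = 0.0103, edgeR).

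Of the 10 genes tested for the oxidation of cysteine sulfur, 4 rose and 2 fell on the ketogenic diet against chow, and none rose and 2 fell on the high-fat diet. Ethe1, the mitochondrial dioxygenase that oxidises persulfide from sulfide breakdown, fell on both. It held 15.65, 18.83, 15.11, 19.73 and 19.67 CPM in the ketogenic libraries, 30.27, 30.0, 25.98, 26.21 and 32.23 CPM in the high-fat libraries, and 52.68, 45.45, 48.24, 50.41 and 40.75 CPM in the chow libraries. No diets overlapped, and the log2 changes were -1.42 ± 0.091 for ketogenic against chow (adjusted p = 4.95e-09, edgeR), -0.72 ± 0.089 for high-fat against chow (adjusted p = 5.38e-05, edgeR) and -0.70 ± 0.090 for ketogenic against high-fat (adjusted p = 2.25e-05, edgeR).

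Fmo1, a flavin monooxygenase that can oxidise hypotaurine to taurine, had 396.0 ± 35.5 CPM on the ketogenic diet, 233.0 ± 10.9 CPM on the high-fat diet and 238.1 ± 25.0 CPM on chow (SD, n = 5). Its ketogenic rise was 0.73 ± 0.078 against chow (adjusted p = 1.37e-06, edgeR) and 0.77 ± 0.078 against the high-fat diet (adjusted p = 1.77e-06, edgeR). Got2, an aminotransferase that also takes cysteine sulfinate, the substrate of Csad, rose by 0.49 ± 0.062 on the ketogenic diet against chow (adjusted p = 9.61e-06, edgeR).

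Glutathione synthesis draws on the same cysteine. Of the 12 genes tested for this synthesis and for the recycling of cysteine, 3 rose and 5 fell on the ketogenic diet against chow. On the high-fat diet none rose and 4 fell. These counts hold breakdown and recycling genes as well as the enzymes of the synthesis. The high-fat falls of Cndp2 and Lap3, peptidases, were lost in many alternatives, and 2 genes fell without the high-fat library labelled 12 or 14 or the chow library labelled 15, 18 or 19. Gclc, the catalytic subunit of the first enzyme, held 363.7 ± 27.9 CPM on the ketogenic diet and 299.0 ± 35.7 CPM on the high-fat diet, against 507.5 ± 21.6 CPM on chow (SD, n = 5). Its log2 changes were -0.48 ± 0.078 (adjusted p = 0.000129, edgeR) and -0.76 ± 0.078 (adjusted p = 1.69e-05, edgeR), and both fat-rich diets lay below chow with no overlap. Gss, another enzyme of the synthesis, rose by 0.35 ± 0.088 on the ketogenic diet against chow (adjusted p = 0.00517, edgeR). Its high-fat change of -0.02 ± 0.089 did not pass (adjusted p = 0.901, edgeR). Of the 7 cystine and cysteine transporters tested, none rose and 2 fell on the ketogenic diet, and 1 fell on the high-fat diet. The ketogenic falls were of Slc3a2, a heavy chain shared by several carriers, and Slc1a4, a neutral amino acid carrier, and both were lost in some alternatives (adjusted p up to 0.834 and 0.122, edgeR). No transporter passed without the ketogenic library labelled 3, 4, 6 or 8 or the chow library labelled 15 or 18, and 1 fell without that labelled 16 or 17. The high-fat fall was of Slc3a2 too, and it was lost without any 1 of the high-fat libraries labelled 9, 11 and 12 or the chow libraries labelled 15 to 18 (adjusted p up to 0.129 over all alternatives, edgeR).

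The supply of cysteamine, the substrate of Ado, comes from coenzyme A, and 5 of the 12 genes of that list rose and 1 fell on the ketogenic diet against chow, while 1 rose and none fell on the high-fat diet. Without the high-fat library labelled 9, 10 or 12, 1 also fell on that diet. Vnn1, the pantetheinase that releases cysteamine, held 202.3, 212.9, 180.0, 143.3 and 164.0 CPM in the ketogenic libraries, 38.57, 31.03, 38.8, 60.48 and 37.01 CPM in the high-fat libraries and 51.94, 39.66, 47.31, 57.98 and 43.44 CPM in the chow libraries. The ketogenic libraries stood apart from both other diets, with log2 changes of 1.91 ± 0.17 against chow (adjusted p = 1.36e-06, edgeR) and 2.13 ± 0.17 against the high-fat diet (adjusted p = 1.11e-06, edgeR). Vnn3, its relative, rose by 0.68 ± 0.082 (adjusted p = 6.04e-06, edgeR) and Pank3, a kinase that begins coenzyme A synthesis, by 0.62 ± 0.065 (adjusted p = 1.01e-06, edgeR) on the ketogenic diet against chow. Nudt7, a peroxisomal hydrolase of coenzyme A, had 233.5 ± 34.1 CPM on the ketogenic diet, against 645.2 ± 154 CPM on chow (SD, n = 5; adjusted p = 9.05e-06, edgeR).

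Among 10 tested genes for the transport and derivatives of taurine, 2 rose and 1 fell on the ketogenic diet, and 1 rose and 2 fell on the high-fat diet, against chow. The ketogenic count is near the share of all genes called. Without the chow library labelled 16, 4 rose and 1 fell on the ketogenic diet, and the high-fat rise, of Acnat1, was lost in 6 of 18 alternatives (adjusted p up to 0.0696, edgeR). Slc6a13, another carrier of taurine in hepatocytes, held 162.3 ± 15.8 CPM on the ketogenic diet and 112.9 ± 15.3 CPM on the high-fat diet, against 169.8 ± 9.65 CPM on chow (SD, n = 5). It fell by 0.59 on the log2 scale on the high-fat diet against chow (adjusted p = 0.000236, edgeR), and was higher by 0.52 ± 0.085 on the ketogenic than on the high-fat diet (adjusted p = 0.000235, edgeR). Acnat2, a peroxisomal acyltransferase related to Baat, rose by 1.24 ± 0.16 on the ketogenic diet against chow (adjusted p = 3.80e-05, edgeR). Pter, a hydrolase of N-acetyltaurine, had 41.34 ± 4.25 CPM on the ketogenic diet and 46.27 ± 9.31 CPM on the high-fat diet, against 67.47 ± 6.85 CPM on chow (SD, n = 5), and fell on both (adjusted p = 0.000248 and 0.0057, edgeR).

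Bile acid activation, conjugation and export, where Baat acts, had 5 of 10 genes higher and 1 lower on the ketogenic diet, and 2 higher and 1 lower on the high-fat diet, against chow. Baat itself is not among the 10. The ketogenic rises were of Slc27a2, Hsd17b4, Acot8, Amacr and Slc10a1, and that of Amacr did not hold in all alternatives (adjusted p up to 0.0718, edgeR). Slc27a5, Acox2, Scp2 and Abcc2 did not pass on that diet (adjusted p = 0.369, 0.157, 0.0891 and 0.148, edgeR). Slc27a2, which activates fatty and bile acids with coenzyme A, rose by 0.83 ± 0.075 on the ketogenic diet (adjusted p = 2.21e-07, edgeR) and by 0.51 ± 0.075 on the high-fat diet (adjusted p = 0.000273, edgeR). Abcb11, the pump that exports the conjugates into bile, held 389.2 ± 19.1 CPM on the ketogenic diet and 492.8 ± 33.3 CPM on the high-fat diet, against 607.8 ± 72.4 CPM on chow (SD, n = 5). It fell on both (adjusted p = 6.71e-06 and 0.0141, edgeR).

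**Figure D5:**
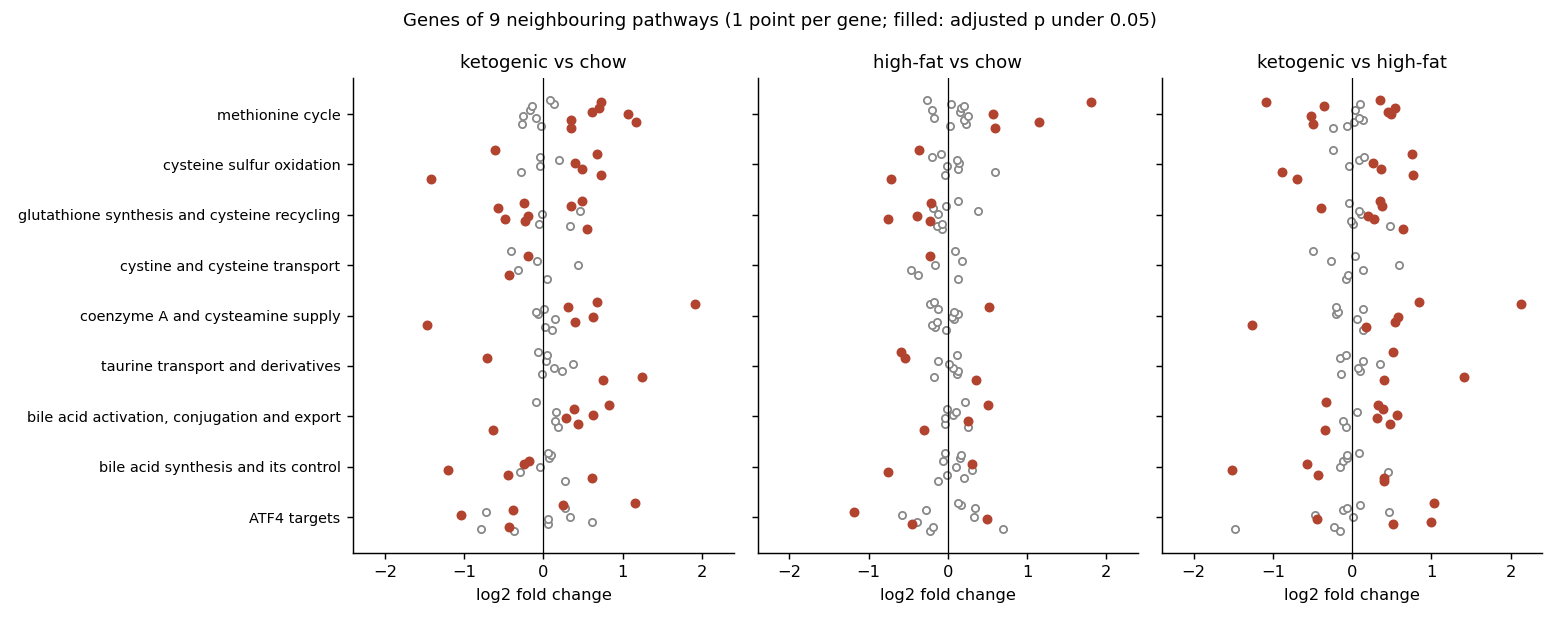
Log2 fold change of the 100 tested genes of 9 pathway lists in the 3 diet comparisons, with 1 point per gene and filled points for an adjusted p under 0.05 in edgeR. Vnn1 is the point farthest to the right for ketogenic against high-fat (2.13), and in the methionine cycle all filled points lie to the right for both comparisons with chow.

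Markers of liver cells were read beside these results. Genes called made up 30.8% of all genes for ketogenic against chow, 15.6% for high-fat against chow and 26.1% for ketogenic against high-fat. Several of the counts below lie near these shares. The summed level of 8 hepatocyte markers ran from 99600 to 110000 CPM on the ketogenic diet and from 85500 to 100000 CPM on the high-fat diet, against 91500 to 108000 CPM on chow. Against chow 1 of these was higher and 3 lower on the ketogenic diet, and 1 higher and 2 lower on the high-fat diet. Of 9 markers of hepatocytes near the central vein, 6 were higher and 1 lower on the ketogenic diet than on chow, with sums of 12500 to 14500 CPM on the ketogenic diet and 8220 to 9520 CPM on the high-fat diet, against 6270 to 8110 CPM on chow. On the high-fat diet 3 of these were higher and 1 lower than on chow. Of 9 markers of hepatocytes near the portal tract, 2 were higher and 5 lower on the ketogenic diet, with sums of 4640 to 7170 CPM on that diet and 6770 to 8190 CPM on the high-fat diet, against 4450 to 7180 CPM on chow, and 2 were higher and none lower on the high-fat diet. The 8 Kupffer cell, 6 endothelial and 5 bile duct markers had no call for ketogenic against chow, all 5 erythroid markers were lower and 4 of 5 B cell markers were lower. Of 6 stellate cell markers 2 were higher, and of 5 T cell markers 2 were lower. The few neutrophil, adipocyte and exocrine pancreas markers that could be tested had no call in that comparison. No marker of any list was at 0 in all libraries. Some were near the floor, and the B cell markers Cd79a, Cd79b and Ms4a1 and the T cell markers Cd3e, Cd3g and Cd8a stayed below 1 CPM throughout. The T cell sums ran from 2.03 to 3.1 CPM on the ketogenic diet, 3.49 to 5.47 CPM on the high-fat diet and 3.18 to 4.15 CPM on chow. The B cell sums ran from 2.62 to 3.71 CPM on the ketogenic diet and from 3.46 to 7.29 CPM on the high-fat diet, against 4.47 to 14.7 CPM on chow. On the high-fat diet 1 B cell marker was lower than on chow and no marker of the other non-hepatocyte lists was called. For ketogenic against high-fat 2 hepatocyte markers were higher and 2 lower, 5 markers of the central vein zone were higher, and 1 of the portal zone was higher and 5 lower. In that comparison 3 Kupffer cell and 1 stellate cell markers were higher, and 2 B cell, 2 T cell, 1 bile duct, 1 erythroid and 1 pancreas markers were lower. The part of cell mixture and zone in the results was not tested, and in bulk liver fewer cells of a type and less RNA per cell cannot be told apart.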

How the data were processed

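Trizol was used for total RNA, per the labels' protocols. The submitters' processing notes name Trimmomatic 0.36, kallisto 0.44, edgeR 3.28 and the build GRCm38.p6. Their settings and annotation release were not found in the labels. The deposited tables hold, per the file headers, an estimated count for each of 106332 transcripts, the reads kallisto assigned to it, and a TPM, a level corrected for effective length and depth.

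Estimated counts were summed per gene with GENCODE M21, which matched 105734 transcripts to 25731 genes, and rounded. The other 598 transcripts (0.184 to 0.223% of reads) were left out. Genes passing filterByExpr (minimum count 10) were fitted in edgeR 4.0.16 over all 15 libraries, so that the 3 diets share 1 estimate of spread, with TMM scaling and a robust quasi-likelihood fit (residual degrees of freedom 12). P-values were adjusted by Benjamini-Hochberg over all 13967 genes, with a threshold of 0.05. Deposited TPM was summed per gene for levels per length and for transcript shares, which were compared by exact permutation tests. Normalised CPM used TMM library sizes, and correlations used log2 CPM with a prior count of 2.

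The members, the pathway lists and the tests were chosen with earlier results of these data known. Named genes were all members, up to 4 genes per list and comparison with the smallest passing adjusted p, and those most like Csad by Pearson correlation, passing over predicted genes. Of the genes this rule names, 1 is not reported here, though it is counted in its list. The division of Csad by start, its overlap with Zfp740 and Cdo1-205 were chosen after the values were seen. Each library was taken as 1 mouse. The labels do not say whether libraries came from separate extractions, so p-values measure the spread between these libraries. No batch is labelled, each diet holds its own block of label numbers, and a batch that followed the diets cannot be told apart from them. The common biological coefficient of variation was 0.1306. Code was tested on simulated data. Promoter windows came from RefSeq (GRCm38.p6). Alternatives covered the tool, scaling, filters, samples, transcript types, effective lengths and each library left out. DESeq2 1.42.0 and limma 3.58.1 ran in R 4.3.3, and scipy 1.17.1, pandas 2.3.3 and matplotlib 3.10.9 in Python 3.11.15.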

Additional observations from a re-analysis of the deposited data

Results flagged for a closer look

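A library was marked where its distance to the nearest other library exceeded 0.71 of the range of its diet, which chance gives in about 5% of groups. Of 246 groups of 5 libraries examined, 12 were marked (4.88%), and none held the gene level of a member. Mat1a was 1147 CPM and Shmt2 129.4 CPM in the chow library labelled 19, each the lowest of its diet, and the Slc6a6-209 share was 0% there. Slc6a13 was 186.5 CPM in the chow library labelled 15 and Slc5a6 2.72 CPM in that labelled 17. Acnat1 was 59.1 CPM and Acot8 14.7 CPM in the ketogenic library labelled 2, Sec22c 20.8 CPM in that labelled 3 and Atf5 160.1 CPM in that labelled 8. Vnn1 was 60.48 CPM in the high-fat library labelled 12, Mthfd2 2.02 CPM in that labelled 9 and Gfpt1 26.51 CPM in that labelled 14.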

How the results depend on the processing

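No paired analysis was possible because each diet holds its own block of label numbers and no number is shared. Over 18 alternatives per comparison the count of genes called stayed within 1.5 times the reported one, between 3602 and 4516 for ketogenic against chow, 1507 and 2754 for high-fat against chow and 2745 and 3943 for ketogenic against high-fat. Total-count scaling gave 68.5% of called genes as higher for ketogenic against chow (52.6% as reported), 48.3% for high-fat against chow (53.1%) and 70.6% for ketogenic against high-fat (50.1%), while the median of all genes moved by less than 0.1. The members called for high-fat against chow numbered 1 to 2 when single libraries were left out, with Ado added without the chow library labelled 19. For ketogenic against high-fat they numbered 1 to 2 without single libraries, and 2 under DESeq2 and total-count scaling (Cdo1 added, adjusted p = 0.0383 in DESeq2 and 0.0252 in edgeR) and with an effective-length offset (Cth added, adjusted p = 0.0433 in edgeR). The log2 change of Cth for ketogenic against chow (-0.0075 as reported) changed sign under total-count scaling (0.06), with no filter (0.0043), with protein-coding transcripts only (0.02), and without the ketogenic library labelled 2 (0.05) or 4 (0.05) or the chow library labelled 17 (0.03) or 18 (0.05). Over single libraries left out it ran from -0.08 to 0.05, and it passed in none of these. Slc3a2 changed sign for ketogenic against chow with the effective-length offset (0.03). Transcript share tests that passed numbered 7 as reported, 10 on estimated counts, 9 with a minimum share of 10% and 0 over the 30 tests outside Csad, an alternative added after the values were seen. With 1 library left out of the 39 tests they numbered 0 to 13, with 13 without the high-fat library labelled 14 and 0 without any other, and a comparison of 4 libraries against 5 allows no p below 0.0159. Outside Csad 0 passed whichever library was left out. With low overlap with Zfp740 the log2 ratio of upstream Csad reads was -0.59 in place of -0.79 for ketogenic against chow and -0.12 in place of -0.48 for high-fat against chow. At most 201 upstream reads per library limit that split, and Ado, with 497 to 887 reads per library, is the member with the fewest.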

Other observations

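Cdo1-205, a Cdo1 transcript that lacks a 78-base exon, was assigned 0 to 426 reads in the ketogenic libraries and 0 to 534 reads in the high-fat libraries, against 457 to 3468 reads in the chow libraries. Its share of Cdo1 was 0.211 ± 0.247% on the ketogenic diet and 0.51 ± 0.472% on the high-fat diet, against 4.23 ± 3.13% on chow (SD, n = 5). The transcript lay under the 5% minimum for the share tests, was picked after its values were seen and has no test.

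Bile acid synthesis supplies the acids that Baat joins to taurine. Of 11 genes for it and its control, 1 was higher and 4 were lower on the ketogenic diet against chow. On the high-fat diet 1 was higher and 1 was lower. These counts stand beside 30.8 and 15.6% of all genes called, and the high-fat count is near that share. The high-fat rise and 1 of the ketogenic falls were of a receptor in the control part of the list, not of an enzyme. On the ketogenic diet 2 were lower without the ketogenic library labelled 3 or the chow library labelled 16 or 18. On the high-fat diet the 1 rise was lost without the high-fat library labelled 11 or 14 or the chow library labelled 15. Cyp7b1, the oxysterol hydroxylase of the alternative route, held 134.8 ± 24.9 CPM on the ketogenic diet and 386.6 ± 119 CPM on the high-fat diet, against 311.1 ± 102 CPM on chow (SD, n = 5). Its log2 change was -1.21 ± 0.25 for ketogenic against chow (adjusted p = 0.0028, edgeR) and -1.52 ± 0.26 for ketogenic against high-fat (adjusted p = 0.000924, edgeR). Cyp27a1, which opens that route, fell by 0.45 on the ketogenic diet against chow (adjusted p = 0.000394, edgeR). Cyp7a1, the rate-limiting enzyme of the classic route, fell by 0.75 on the high-fat diet against chow (adjusted p = 0.0197, edgeR), and by 0.70 without the high-fat library labelled 12 (adjusted p = 0.053, edgeR).

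ATF4 is a factor that responds to amino acid shortage. Of 13 genes, its own and those of its targets, 2 were higher and 3 lower on the ketogenic diet against chow. On the high-fat diet 1 was higher and 2 were lower. The ketogenic falls included Atf4 itself, with a log2 change of -0.43 ± 0.11 (adjusted p = 0.00924, edgeR). In all, 5 and 3 of the 13 genes passed, beside 30.8 and 15.6% of all genes. Without the high-fat library labelled 10 or the chow library labelled 15, none was higher and 1 was lower on the high-fat diet. Trib3, a target induced under stress, rose by 1.16 ± 0.21 on the ketogenic diet (adjusted p = 0.000296, edgeR), while Mthfd2, an enzyme of mitochondrial folate metabolism, fell by 1.04 (adjusted p = 0.00186, edgeR). Both were at low levels. Trib3 averaged 3.894 CPM on the ketogenic diet and 1.748 CPM on chow, with no overlap. Mthfd2 averaged 1.025 CPM on the ketogenic diet and 2.134 CPM on chow, and its libraries overlapped.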
